A study of Homo sapiens with 8 samples.

Results

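The glutathione S-transferase genes listed here, 10 in number, were followed in 2 colorectal cancer cell lines with and without Z325: *GSTM2*, *GSTM3*, *GSTM4*, *GSTA4*, *GSTP1*, *GSTO1*, *GSTK1*, *MGST1*, *MGST2* and *MGST3*. They were chosen by gene symbol and not by a rule on their values, though with earlier results of these data known. All 10 were found among the 63241 genes of the NCI-H716 tables, and 7 of the 10 among the 28043 genes of the HCT116 table. The HCT116 table used here holds genes up to the start of chromosome 9, so *GSTP1*, *GSTO1* and *MGST1*, on chromosomes 11, 10 and 12, have NCI-H716 values only.

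Z325 (ZINC000101867325) is a small molecule picked by docking to the kinase domains of the FGFR receptors, and the libraries were made to see how cells that received it differ from cells that did not. RNA was sequenced from HCT116 and NCI-H716, 2 established human colorectal cancer cell lines. The 8 libraries form 4 groups of 2: HCT116 control, HCT116 Z325, NCI-H716 control and NCI-H716 Z325. The labels call the Z325 libraries "Test", and give neither the dose and time of Z325 for the sequenced cells nor what the control cells received. Each reaction started from about 100 cells. A line is a single cultured population, and with 2 libraries in a group the tests measure the spread between these libraries alone. In RNA from pooled cells, fewer cells that express a gene and less of its RNA per cell cannot be told apart.

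Glutathione S-transferases join glutathione, the main small thiol of the cell, to reactive electrophiles such as lipid aldehydes, epoxides and drug metabolites, and the conjugates are then exported and trimmed. The soluble enzymes fall into classes (alpha, mu, pi, omega and others), the kappa enzyme sits in mitochondria and peroxisomes, and the microsomal MGST proteins are a separate family of membrane enzymes. Many genes of glutathione metabolism carry antioxidant response elements, which the factor NRF2 binds after electrophile stress, and the pi class enzyme is well known for its high level in colorectal tumours.

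The upstream sequences are shown because that element is the regulatory sequence for which this gene family is best known. The core TGACNNNGC was searched on both strands from 250 bases before to 50 bases after the start of each gene in the RefSeq promoter set (GRCh38.p14). The set held 11 starts for 9 of the 10 genes, with none for *MGST2*. The core occurred in 4 of the 11 windows, against 13.3% of all 35116 promoters in the set, and a match in a window is a description of letters and not of binding. Below, the matches that lie before the RefSeq start are in capitals, 5′ to 3′ on the gene's own strand. Some GENCODE v44 transcripts of the 3 genes start farther upstream than the RefSeq start used here, so these stretches lie in part or whole inside the GENCODE gene bounds given further on. The remaining match belonged to 1 of the 3 *MGST1* starts and began 31 bases after it.
GSTP1: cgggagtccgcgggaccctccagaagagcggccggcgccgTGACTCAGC
GSTA4: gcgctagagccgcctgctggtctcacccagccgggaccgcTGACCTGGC
GSTO1: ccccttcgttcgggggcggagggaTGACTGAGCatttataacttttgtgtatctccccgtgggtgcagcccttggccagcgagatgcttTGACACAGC

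The *GSTP1* stretch is chr11:67583706-67583754 on the plus strand, with the core beginning 66 bases before the start. The *GSTA4* stretch is chr6:52995285-52995333 on the minus strand, with the core beginning 9 bases before the start. The *GSTO1* stretch is chr10:104254642-104254739 on the plus strand and holds 2 cores, beginning 226 and 161 bases before the start. As shown further on, none of these 3 genes passed the test for a change with Z325 in a line where it was measured.

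The 4 HCT116 libraries held 3434620 to 13396225 counts over all 28043 genes used, and the shallowest was Z325 replicate 2. The 4 NCI-H716 libraries held 10210239 to 19738840 over all 63241 genes. Among HCT116 genes with 1 to 20 counts, 68.1% to 86.8% had an even count, against 40.8% to 41.6% in NCI-H716, and halving the HCT116 counts left 0 listed transferases past the test, of 4 then tested. Epithelial markers were present in both lines, with 5 of 8 listed genes at 1 CPM (counts scaled to the library total) or more in HCT116 and 10 of 15 in NCI-H716, where *CDX1* was at 0. In NCI-H716, 9 of 11 neuroendocrine markers reached 1 CPM, and 4 of 8 fibroblast markers did, led by *COL3A1* and *LUM*. The fibroblast markers summed to 497 to 525 CPM in control and 475 to 514 CPM in Z325, and their part in the results was not tested. In HCT116 their sum was 1.72 CPM at most.

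No listed transferase passed the test for a change with Z325 in either line. In HCT116, 0 of 6 tested genes had an adjusted p under 0.05 in edgeR's quasi-likelihood test with Benjamini-Hochberg adjustment over 6491 genes. By the same test, 5.78% of all tested HCT116 genes were called, 2.83% as higher and 2.94% as lower with Z325. In NCI-H716, 0 of 9 tested genes passed over 14142 genes, against 0.502% of all genes, 0.403% higher and 0.099% lower. Before adjustment, a p under 0.05 was reached by 2 of 6 genes in HCT116 (*MGST3* and *GSTM4*), against 23.9% of all genes. In NCI-H716 it was reached by 2 of 9 (*GSTM3* and *GSTK1*), against 16.9%. The median log2 fold change of the tested members was -0.48 in HCT116 and -0.04 in NCI-H716, and that of all tested genes was -0.03 and -0.01. DESeq2 called 0 of the 4 members it tested in HCT116 and 0 of 8 in NCI-H716.

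The spread around the test was wide, so these counts do not show that the genes held the same level. The Z325 libraries did not overlap the controls for 4 of 6 tested members in HCT116, 1 above (*MGST3*) and 3 below (*GSTM4*, *GSTA4* and *GSTK1*), where 53.8% of all tested genes did not overlap. In NCI-H716, 3 of 9 did not overlap, 1 above (*GSTM3*) and 2 below (*GSTK1* and *MGST2*), where 49.4% of all tested genes did not overlap. *GSTM3* passed the filter on low counts only through its Z325 libraries, so its place above partly follows from that filter.

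**Figure D1:**
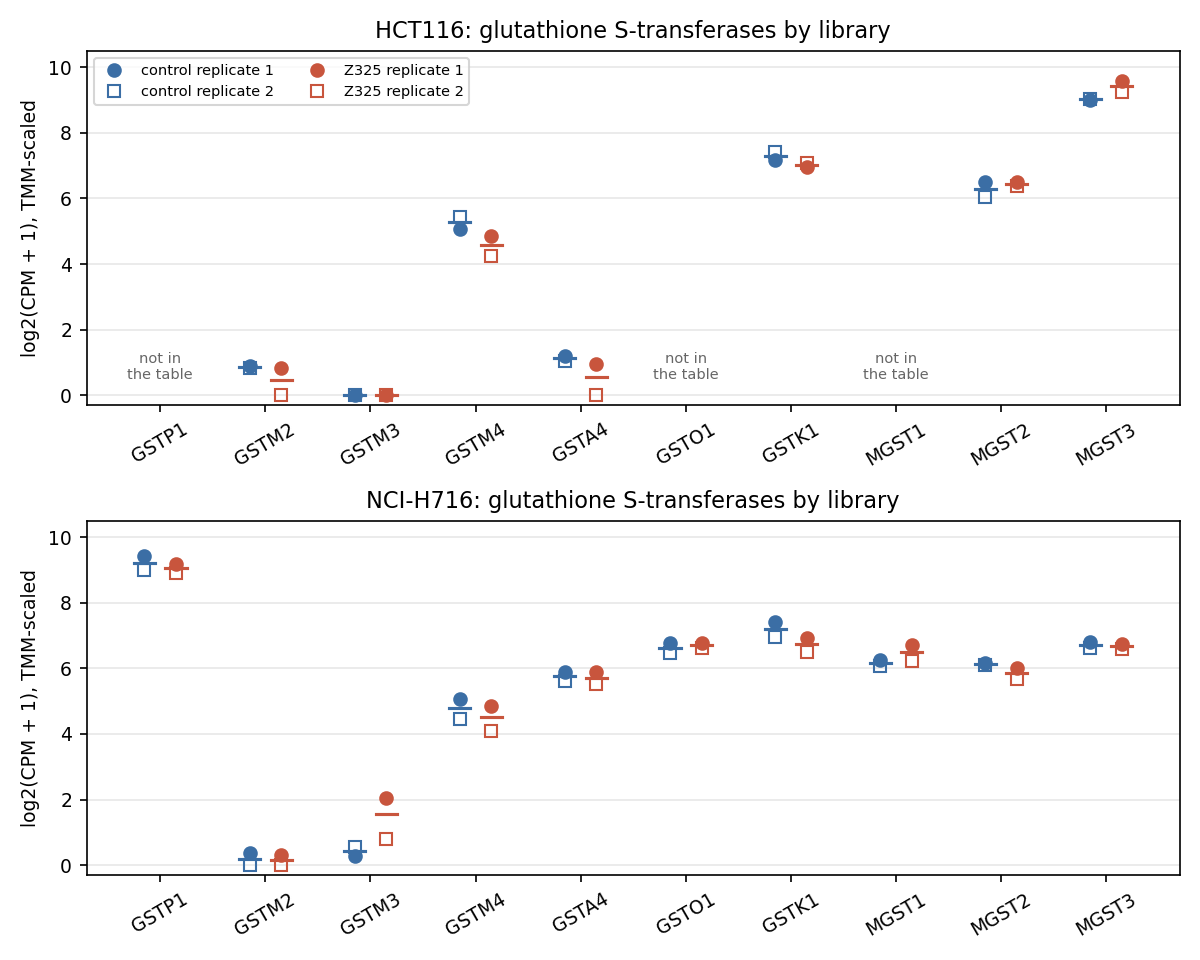
Level of each glutathione S-transferase in every library, as log2(CPM + 1) after TMM scaling, for HCT116 (upper panel) and NCI-H716 (lower panel). Circles are replicate 1, open squares replicate 2, and short bars the mean CPM of a group placed on the same axis. *MGST3* was the highest listed gene in HCT116 and *GSTP1* in NCI-H716, *GSTM3* was at 0 in all HCT116 libraries, and the 3 genes not in the HCT116 table are marked.

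The pi class gene *GSTP1* (ENSG00000084207, chr11:67583742-67586656, GENCODE v44 on GRCh38) encodes a soluble transferase that also binds stress kinases. In NCI-H716 it was at 682 and 512 CPM in control and at 582 and 478 CPM with Z325. The groups overlapped, with the lowest and the second-highest value both in treated libraries. The log2 fold change was -0.17 (SE 0.19, 95% interval -0.59 to 0.24, adjusted p = 0.686 in edgeR), an interval that holds changes from a fall of 0.59 to a rise of 0.24 on the log2 scale.

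In the mu class, which conjugates epoxides and other aromatic electrophiles, *GSTM4* (ENSG00000168765, chr1:109656099-109665496) was the only member above a few CPM. In HCT116 it was at 32.7 and 42.3 CPM in control and at 28.0 and 18.0 CPM with Z325. Both treated libraries were below both controls, and the lowest value came from the shallow Z325 replicate 2, with 63 counts against 358 to 552 in the other libraries. The log2 fold change was -0.68 (SE 0.29, 95% interval -1.34 to -0.02) and did not pass the test (adjusted p = 0.198 in edgeR). Without Z325 replicate 1 it was -1.07 (adjusted p = 0.0199), and that fit, in which the lone treated library is assumed to vary like the controls, called 438 genes higher and 533 lower of 6835, against 184 and 191 of 6491 with all 4 libraries. Without the shallow Z325 replicate 2 the *GSTM4* value was -0.39. In NCI-H716 *GSTM4* was at 32.3 and 20.8 CPM in control and at 28.0 and 15.9 CPM with Z325, so that the groups overlapped (log2 fold change -0.29, SE 0.30, adjusted p = 0.675 in edgeR).

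*GSTM3* (ENSG00000134202, chr1:109733932-109741038), a mu class enzyme best known from testis and brain, had 0 counts in all 4 HCT116 libraries. This allows at most 0.224 to 0.873 CPM (3 counts of each total, counting error only). That bound holds only if counts are independent, which the mostly even low counts of HCT116 put in doubt. In NCI-H716 it had 3 and 5 counts in control and 41 and 15 with Z325. The filter on low counts kept it only through the Z325 libraries, the group where it was higher. Both treated libraries lay above both controls, but they differed from each other by more than the controls did, at 3.13 and 0.754 CPM against 0.227 and 0.485. Pooled counts per total were 5.01 times as high with Z325 (exact 95% interval 2.38 to 12.2, counting error only). The fitted log2 fold change was 2.43 (SE 0.89, 95% interval 0.45 to 4.40), was not past the test (adjusted p = 0.225 in edgeR), and was 1.10 without Z325 replicate 1. An antisense long noncoding gene shares 202 of its 4750 exon bases, and the counting is not stated to use strand, so its reads are uncertain.

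*GSTM2* (ENSG00000213366, chr1:109668022-109709551), a muscle and brain mu class enzyme, was close to the limit of detection in both lines. In HCT116 it had 12 and 10 counts in control and 10 and 0 with Z325, and the 0 came from the shallow library. By the same bound, which takes counts as independent, that 0 allows up to 0.873 CPM. The log2 fold change in HCT116 was -0.68 (SE 1.18, adjusted p = 0.789 in edgeR). It was -0.04 without the shallow library, and the fitted -6.07 without Z325 replicate 1 rests on the single 0 and is no measure of size. In NCI-H716 it had 4 and 0 counts in control and 3 and 0 with Z325 and was too low to test. The mu genes lie side by side on chromosome 1, and 10.7% of the 75-base words of *GSTM2* and 5.42% of those of *GSTM4* also occur in other genes, mostly in *GSTM1*, so their reads could be split. *GSTM1* and *GSTM5* had 0 counts in HCT116 and 0 to 5 in NCI-H716. With the 5 mu genes summed to 1 row, the log2 fold change was -0.69 in HCT116 (adjusted p = 0.198 in edgeR) and -0.19 in NCI-H716 (adjusted p = 0.805 in edgeR).

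The alpha class gene *GSTA4* (ENSG00000170899, chr6:52977948-52995304) encodes the enzyme with the best activity on 4-hydroxynonenal, an aldehyde made when lipids are oxidised. It stood far apart between the lines. In NCI-H716 it was at 58.7 and 47.5 CPM in control and at 58.0 and 45.3 CPM with Z325, with the groups overlapping closely (log2 fold change -0.04, SE 0.20, 95% interval -0.49 to 0.40, adjusted p = 0.935 in edgeR). In HCT116 it had only 18 and 14 counts in control and 12 and 0 with Z325 (control mean 1.19 ± 0.161 CPM, SD, n = 2). The treated libraries were below the controls. The 0 in the shallow library allows up to 0.873 CPM if counts are independent, which the mostly even low counts put in doubt. The HCT116 interval of the log2 fold change ran from -3.51 to 1.56 (estimate -0.98, adjusted p = 0.651 in edgeR), so a change was not detectable at this depth. Without the shallow Z325 replicate 2 the estimate was -0.31, and without Z325 replicate 1 the fitted -6.61 rests on the single 0 and is no measure of size.

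The omega class gene *GSTO1* (ENSG00000148834, chr10:104235356-104267459) encodes a thioltransferase that also reduces dehydroascorbate and arsenic species. Its level in NCI-H716 was 107 and 86.7 CPM in control and 109 and 96.8 CPM with Z325. Its groups overlapped, and the log2 fold change was 0.08 (SE 0.18, 95% interval -0.31 to 0.48, adjusted p = 0.855 in edgeR).

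The kappa class gene *GSTK1* (ENSG00000197448, chr7:143244093-143270854), of mitochondria and peroxisomes, was the only member whose Z325 libraries were below the controls in both lines with more than 100 counts in each library. In HCT116 it was at 142 and 171 CPM in control and at 124 and 133 CPM with Z325 (log2 fold change -0.29, SE 0.16, 95% interval -0.65 to 0.08, adjusted p = 0.313 in edgeR). In NCI-H716 it was at 170 and 122 CPM in control and at 121 and 89.4 CPM with Z325. There the lower control and the higher treated library were nearly level, at 122 and 121 CPM. The NCI-H716 log2 fold change was -0.48 (SE 0.21, 95% interval -0.95 to -0.01), not past the test (adjusted p = 0.290 in edgeR). Without Z325 replicate 1 it was -0.70 (adjusted p = 0.0333), under the same assumption and with 502 genes called higher and 884 lower of 14969, against 57 and 14 of 14142 with all 4 libraries. Without control replicate 1 it was -0.21.

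Of the microsomal enzymes, *MGST1* (ENSG00000008394, chr12:16347142-16609259) is a transferase and lipid peroxidase of the endoplasmic reticulum and the outer mitochondrial membrane. Its level in NCI-H716 was 75.3 and 65.9 CPM in control and 104 and 73.6 CPM with Z325. One treated library was above both controls and the other between them (log2 fold change 0.33, SE 0.20, 95% interval -0.12 to 0.78, adjusted p = 0.437 in edgeR).

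*MGST2* (ENSG00000085871, chr4:139665768-139740745), which can also make leukotriene C4, was at 89.2 and 65.4 CPM in HCT116 control and 89.0 and 81.9 CPM with Z325. The groups overlapped there (log2 fold change 0.15, SE 0.20, 95% interval -0.32 to 0.61, adjusted p = 0.723 in edgeR). In NCI-H716 it was at 71.3 and 67.5 CPM in control and at 63.4 and 49.7 CPM with Z325. Both treated libraries were below both controls there, with a log2 fold change of -0.30 (SE 0.19, 95% interval -0.71 to 0.11, adjusted p = 0.442 in edgeR). The gene *MAML3* on the other strand shares 252 of the 3172 exon bases of *MGST2*.

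*MGST3* (ENSG00000143198, chr1:165631213-165661796), a membrane enzyme with peroxidase activity on lipid hydroperoxides, was the only HCT116 member whose treated libraries were both above the controls. It was at 515 and 526 CPM in control and at 771 and 604 CPM with Z325. The controls lay close together and the treated libraries were farther apart from each other than the controls were. The log2 fold change was 0.40 (SE 0.15, 95% interval 0.07 to 0.74, 1.32-fold) and did not pass the test (adjusted p = 0.141 in edgeR). Without the shallow Z325 replicate 2 it was 0.59 (adjusted p = 0.00374), in a fit that also assumes the lone treated library to vary like the controls and called 514 genes higher and 562 lower of 7093. Without Z325 replicate 1 it was 0.20. In NCI-H716 *MGST3* was at 111 and 96.7 CPM in control and at 107 and 95.2 CPM with Z325, overlapping throughout (log2 fold change -0.04, SE 0.17, 95% interval -0.42 to 0.34, adjusted p = 0.929 in edgeR).

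**Figure D2:**
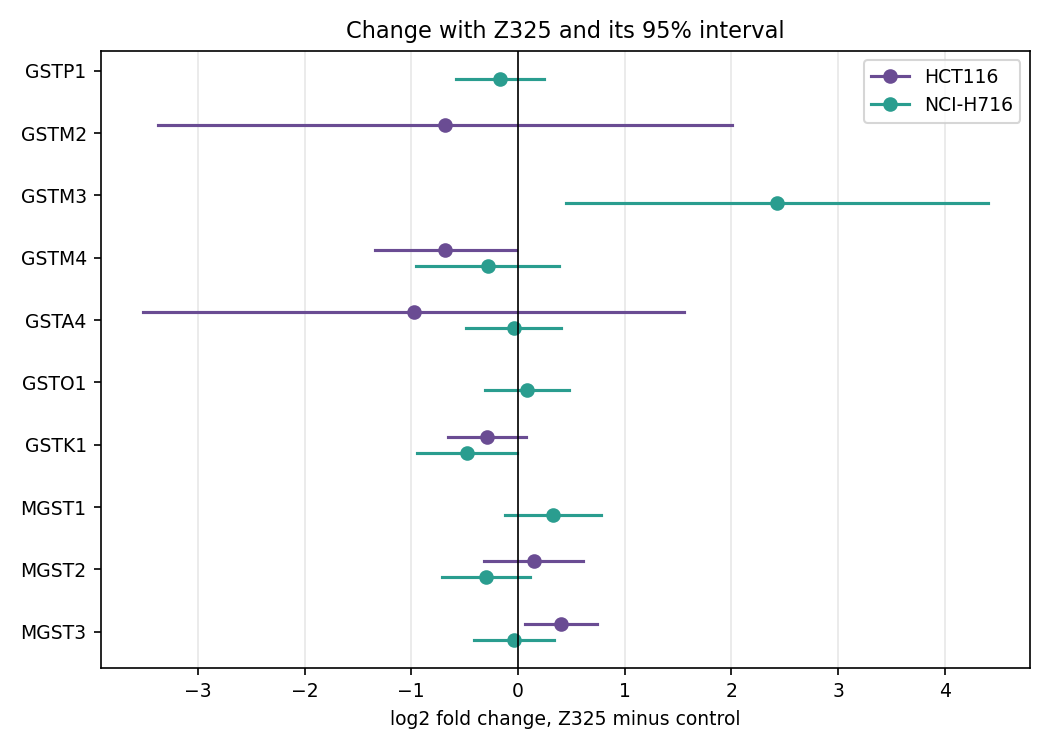
Log2 fold change of each glutathione S-transferase, Z325 minus control, with its 95% interval from edgeR's quasi-likelihood fit, in HCT116 (purple) and NCI-H716 (green), 2 libraries a group. Only *MGST3* in HCT116 and *GSTM3* in NCI-H716 have an interval wholly above 0, *GSTM4* in HCT116 and *GSTK1* in NCI-H716 end just below 0, and none of the 4 passed the adjusted test. *GSTM3* passed the filter on low counts only through its Z325 libraries.

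The change with Z325 was then compared between the lines as the interaction of treatment and line over all 8 libraries. Of the 5 members for which it could be estimated, 0 passed, against 0.0654% of the 7642 genes tested, and 0 had an unadjusted p under 0.05. DESeq2 also gave 0 members past the test. For *MGST3* the NCI-H716 change minus the HCT116 change was -0.46 on the log2 scale (95% interval -0.97 to 0.05, adjusted p = 0.395 in edgeR). The other estimates were 0.37 for *GSTM4*, -0.46 for *MGST2*, 0.68 for *GSTA4* and -0.21 for *GSTK1*, with intervals that all held 0. The *GSTA4* difference was 0.28 without HCT116 Z325 replicate 2, and without HCT116 Z325 replicate 1, where the remaining treated library had 0 counts, the fitted 6.29 is no measure of size. *GSTM3* gave no estimate, since all its HCT116 counts were 0.

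Levels were compared between the genes of a line per length of transcript, in FPKM. In NCI-H716 *GSTP1* led by far, at 1325 and 1080 FPKM in control and 1231 and 1047 FPKM with Z325, and made up 55.8% to 58.3% of the summed FPKM of the 10 genes in every library. *MGST3* came next at 206 to 233 FPKM over the 4 libraries. *GSTK1* (118 to 206 FPKM) and *GSTO1* (160 to 197 FPKM) overlapped each other, as did *MGST2* (109 to 143 FPKM) and *MGST1* (105 to 164 FPKM). These pairs also crossed, with *MGST1* at 164 and *GSTK1* at 157 FPKM in Z325 replicate 1. Below them came *GSTA4* at 49.4 to 59.8 FPKM and *GSTM4* at 18.8 to 28.6 FPKM. *GSTM3* (0.08 to 4.15 FPKM) and *GSTM2* (0 to 0.30 FPKM) closed the order and overlapped. The effective length of *GSTM3* ran from 621 to 2721 bases between libraries, on 3 to 41 counts, so its FPKM values are uncertain.

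In HCT116 the order began with *MGST3* in all 4 libraries, at 48.2% to 60.2% of the summed level of its 7 listed genes when counts were divided by annotated exon length, and at 73.1% to 81.4% when divided by the effective lengths of the NCI-H716 tables. The scales part because the annotated exons of *MGST3* span 8052 bases, whereas its effective length in NCI-H716 was 446 to 490 bases. *GSTK1* and *MGST2* followed, at 28.0 to 40.2 and 20.4 to 29.2 FPKM by exon length, and they changed places in 1 or more libraries by effective length. *GSTM4* came after them at 3.43 to 7.82 FPKM, and *GSTA4* and *GSTM2* reached 0.642 and 0.0987 FPKM at most.

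Side by side, with no test because the tables of the lines were made differently, *GSTA4* was at 114 and 90.9 TPM over the genes of both tables in NCI-H716 control. It was at 1.87 and 1.47 in HCT116 control by exon length, and at 1.07 and 0.856 by effective length. *MGST3* was at 432 and 380 in NCI-H716 control. In HCT116 control it was at 193 and 188 by exon length but at 860 and 853 by effective length, so the order of the lines for *MGST3* turned with the length used.

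**Figure D3:**
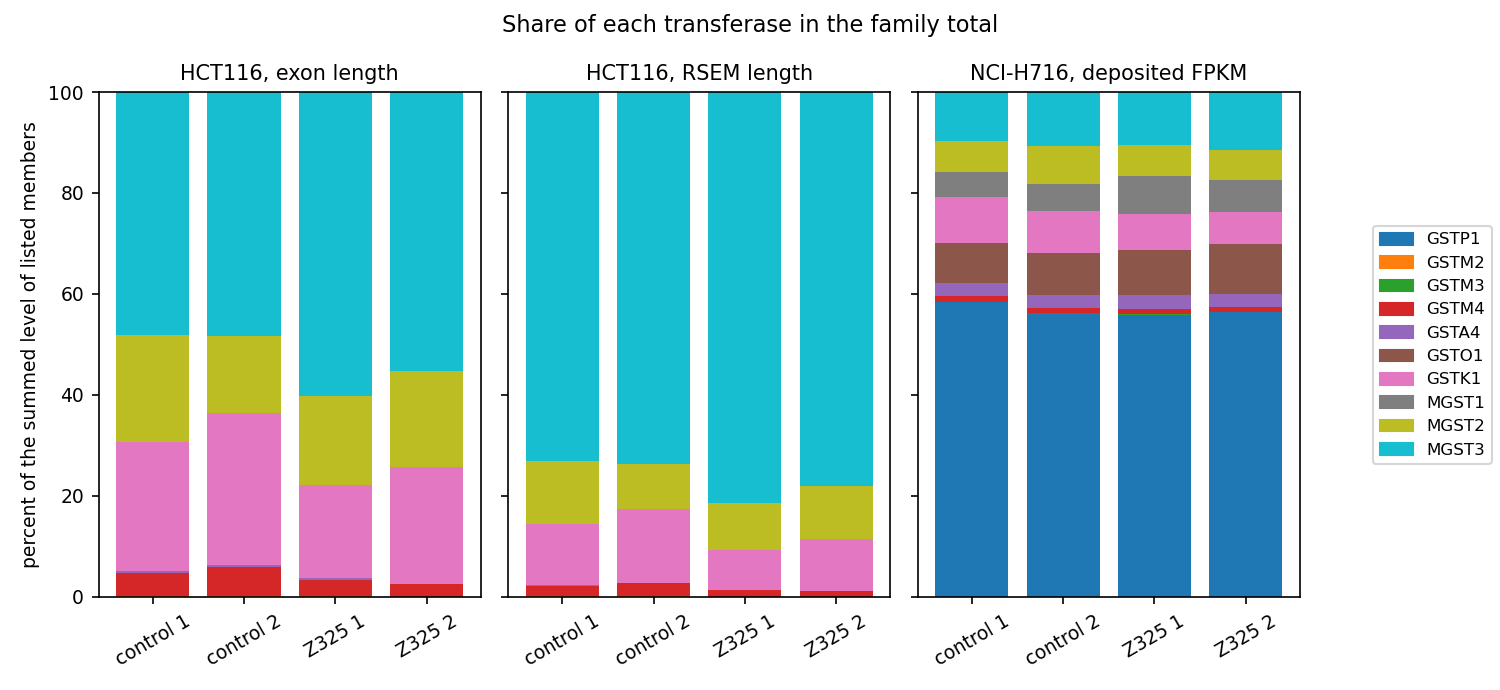
Share of each glutathione S-transferase in the summed level of the listed genes, in percent, for each library: HCT116 by annotated exon length (left), HCT116 by effective length (middle) and NCI-H716 by deposited FPKM (right). *MGST3* fills the largest share of every HCT116 bar and *GSTP1* of every NCI-H716 bar, at 55.8% to 58.3%, and the HCT116 bars lack the 3 genes outside its table.

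Transferases outside the list passed the test in 1 case. Of 17 further transferase genes, 9 were tested in NCI-H716, with a median log2 fold change of 0.10. None was called lower, and 1 was called higher, against 0.403% of all tested genes. This was the alpha class gene *GSTA1*, a steroid isomerase and detoxifying enzyme of liver and gut, at 253 and 256 CPM in control and 514 and 587 CPM with Z325 (log2 fold change 1.11, SE 0.16, adjusted p = 0.0134 in edgeR). Its neighbour *GSTA2*, with which it shares 11.5% of its 75-base words, was at 342 and 372 CPM in control and 554 and 585 CPM with Z325 (log2 fold change 0.67, adjusted p = 0.103 in edgeR). *GSTA3* had 2 and 4 counts in control and 20 and 29 with Z325 (log2 fold change 2.48, adjusted p = 0.182 in edgeR). All 3 were above control in both treated libraries, and only *GSTA1* was called. They were named for their small adjusted p, so their place above control partly follows from that choice. *GSTA3* also passed the filter on low counts only through its Z325 libraries. Of the 9 tested genes, 4 were above control and 1 below in both treated libraries. These 5 of 9 that did not overlap compare with 49.4% of all tested genes. The *GSTA1* call was lost without control replicate 1 (1.11, adjusted p = 0.153), in a fit of all 8 libraries (adjusted p = 0.180) and with limma on log2(FPKM + 1) (adjusted p = 0.0920). *GSTA2* passed with DESeq2 (adjusted p = 0.00605), with no filter (0.00675) and without Z325 replicate 1 (0.00599). In HCT116 1 of the 17 was tested, *GSTCD*, a gene with a transferase-like domain, at a log2 fold change of -0.74 (adjusted p = 0.191 in edgeR).

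Some of the genes that make and recycle glutathione, the substrate of these enzymes, rose with Z325. Of 13 such genes, 8 were tested in HCT116 and 3 rose, *SLC7A11*, *GCLM* and *GCLC*, with 0 lower, 5 not past the test and a median log2 fold change of 0.51. Of all tested HCT116 genes 2.83% were called higher. *SLC7A11*, the cystine importer, went from 127 ± 12.5 to 802 ± 79.9 CPM (SD, n = 2; adjusted p = 0.000331 in edgeR). *GCLM* and *GCLC*, the modifier and catalytic subunits of the rate-limiting enzyme of glutathione synthesis, had log2 fold changes of 1.79 and 1.73 (adjusted p = 0.00113 and 0.00498 in edgeR). The *GCLC* call was lost without either control library (adjusted p = 0.0527 and 0.0877).

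In NCI-H716, 12 of the 13 were tested and 3 rose, *SLC7A11* (2.25), *GCLM* (2.04) and *SLC3A2* (1.14), the partner chain of the importer, in log2 fold change, with adjusted p of 0.000404, 0.00117 and 0.0130 in edgeR. None of the 12 was called lower, the other 9 did not pass, and the median was 0.48. Of all tested NCI-H716 genes 0.403% were called higher. The *SLC3A2* call was lost without control replicate 1 (adjusted p = 0.142), and with limma on log2(FPKM + 1) none of the 3 NCI-H716 calls was kept (adjusted p = 0.0585 for *SLC7A11*, 0.0676 for *GCLM* and 0.0918 for *SLC3A2*). *GCLC* was at a log2 fold change of 0.88 in NCI-H716 (adjusted p = 0.0615 in edgeR).

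The genes that export and trim the conjugates gave no call. Of 19, 3 were tested in HCT116 and 9 in NCI-H716, with 0 past the adjusted test in either, 0 and 4 at an unadjusted p under 0.05, and medians of -0.02 and 0.17. Of all tested genes 23.9% and 16.9% had an unadjusted p under 0.05. In NCI-H716 DESeq2 called 1. The nearest to a call there were the conjugate pumps *ABCC3*, *ABCC1* and *ABCC2*, with log2 fold changes of 0.93, 0.82 and 0.60 (adjusted p = 0.0898, 0.128 and 0.157 in edgeR).

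Of the enzymes that act beside the transferases on aldehydes and peroxides, 7 were tested in HCT116, with a median of 0.29. Of these 7, 6 had a positive log2 fold change. The other was *GPX1* (-0.59, unadjusted p = 0.0234, adjusted p = 0.140 in edgeR). None passed as lower, and 2 passed as higher, against 2.83% of all tested genes. These were *AKR1B10*, an aldehyde reductase (log2 fold change 2.73, adjusted p = 0.00202 in edgeR), and *GPX8*, a glutathione peroxidase relative of the endoplasmic reticulum (0.83, adjusted p = 0.0191 in edgeR). The *GPX8* call was lost without either control library (adjusted p = 0.116 and 0.220). In NCI-H716 17 genes were tested, with a median of 0.71. Before adjustment 9 higher and 4 lower had a p under 0.05, where 16.9% of all tested genes did in either direction. None passed as lower after adjustment, and 7 passed as higher, against 0.403% of all tested genes. By smallest adjusted p these began with the aldo-keto reductases *AKR1C2* and *AKR1C1*, which reduce steroids and lipid aldehydes, with log2 fold changes of 3.70 and 3.08 (adjusted p = 1.52e-05 and 4.14e-05 in edgeR). *GPX2*, the gut glutathione peroxidase, came next and went from 12.7 ± 1.91 to 87.0 ± 2.07 CPM (SD, n = 2; log2 fold change 2.78, adjusted p = 0.000246 in edgeR). *AKR1B10* had 3 and 9 counts in control and 516 and 481 with Z325 (adjusted p = 0.000404 in edgeR), and *AKR1C3* had a log2 fold change of 1.21 (adjusted p = 0.00976 in edgeR), a call lost without control replicate 1 (adjusted p = 0.113) and with limma on log2(FPKM + 1) (adjusted p = 0.0920). The *AKR1C* genes are close paralogs, so the split of reads among them is uncertain.

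The 4 lower genes of that list in NCI-H716 were named after their values were seen. They were the glutathione peroxidases *GPX1* (-1.25, adjusted p = 0.118), *GPX4* (-1.08, adjusted p = 0.198) and *GPX3* (-2.73, adjusted p = 0.197) and the glyoxalase *HAGH* (-0.75, adjusted p = 0.242), in log2 fold change from edgeR. Both Z325 libraries were below both controls for each of them, which partly follows from that choice. Of all tested NCI-H716 genes 49.4% did not overlap, in either direction. The list's lower calls ran from 0 to 4 over the alternatives, and without the filter on low counts *GPX1*, *GPX4* and *GPX3* passed (adjusted p = 2.65e-07, 7.22e-06 and 0.0137).

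These related lists share both the control and the Z325 libraries with the 10 transferases, and no test of a difference between lists was made.

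Set against all genes, all 6 tested HCT116 members and 8 of the 9 NCI-H716 members (all but *GSTM3*) lay between the 5th and 95th percentile of the log2 fold changes. The median size of the change, regardless of sign, was 0.54 for the HCT116 members and 0.41 for all tested genes, and 0.29 and 0.31 in NCI-H716.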

How the data were processed

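RNA-seq libraries were made from HCT116 and NCI-H716 cells, control or Z325, with 2 libraries per group. The authors deposited the HCT116 data as 1 table of raw read counts per gene with exon lengths, of which 28043 genes were used and 4 broken lines were left out. For NCI-H716 the authors deposited per-library RSEM tables with expected counts, TPM and FPKM. The paper describes trimming with TrimGalore, alignment with STAR and RSEM quantification, and the submitters' processing notes name Bowtie2 2.5.0, featureCounts and hg38. How reads shared between paralogs were counted in HCT116 is not given in the sources used here. For NCI-H716 the values are RSEM's expected counts. HCT116 FPKM and TPM were computed here from the counts and lengths. Expected counts were rounded to whole numbers, and 39 of 40 member values were already whole within 0.005.

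Each line was fitted alone with edgeR 4.0.16 (TMM, filterByExpr, quasi-likelihood test, R 4.3.3) without a block, at an adjusted p of 0.05 (Benjamini-Hochberg over all genes tested). CPM values are TMM-scaled. The fit was tested on simulated data. Alternatives were no filter on low genes, a filter that kept genes with 10 or more counts throughout, DESeq2 1.42.0, scaling to totals, limma 3.58.1 on log2(FPKM + 1) and log2(FPKM + 0.1), a replicate block, all 8 libraries in 1 fit, thinning to the shallowest library, *GSTM1* to *GSTM5* summed, and each library left out. Halved HCT116 counts were added after the data were seen. With 2 against 2 libraries an exact two-sided permutation test cannot go below p = 0.333, so none was used. All 10 members are named, and up to 5 genes of a related list in each line by smallest adjusted p, with *GSTM1* and *GSTM5* always. The members and lists were chosen with earlier results of these data known. Positions were read from GENCODE v44, in which all 27702 HCT116 genes with the same versioned identifier had the same coordinates.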

Additional observations from a re-analysis of the deposited data

How the results depend on the processing

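The limits were 2 libraries per group and a shallow HCT116 Z325 replicate 2. Over 274 combinations of 1 of the 20 member results and an alternative, 258 kept the sign and 4 went past the threshold. With the replicate block, 1 member passed in NCI-H716 (*GSTK1*, log2 fold change -0.47, adjusted p = 0.00292 in edgeR) and 0 in HCT116, and the numbers of the 2 pairs are shared in the labels without being said to mark a batch (correlation of same-numbered deviations -0.03 in HCT116 and 0.20 in NCI-H716). The block raised the NCI-H716 calls over all genes from 57 higher and 14 lower to 1061 and 1336. Replicate 1 was above replicate 2 in both NCI-H716 groups for 8 of the 9 tested members, against 31.1% of all tested genes. Leaving out 1 library gave 0 to 1 members called in each line: *GSTM4* or *MGST3* in HCT116, without Z325 replicate 1 or 2, and *GSTK1* in NCI-H716, without Z325 replicate 1. Between the lines 0 members passed under any alternative run. With limma on log2(FPKM + 1) and log2(FPKM + 0.1) the NCI-H716 values of *GSTA4* (0.0192 and 0.0195) and *MGST3* (0.0653 and 0.0656) turned positive. On leaving out 1 library the log2 fold change ran from -0.0695 to 0.381 for *MGST2* in HCT116. In NCI-H716 it ran from -0.735 to 0.0896 for *GSTM4*, -0.219 to 0.142 for *GSTA4*, -0.352 to 0.0567 for *GSTP1*, -0.0522 to 0.250 for *GSTO1* and -0.122 to 0.0683 for *MGST3*. The difference between the lines ran from -0.0536 to 0.869 for *GSTM4* and -0.418 to 0.111 for *GSTK1*. Lists varied more: calls over the alternatives ran from 0 to 3 higher for the further transferases, 0 to 6 for glutathione supply, 0 to 3 for conjugate handling and 1 to 9 for aldehyde and peroxide enzymes in NCI-H716, and from 2 to 5 for glutathione supply in HCT116. Lower calls ran from 0 to 4 for aldehyde and peroxide enzymes and 0 to 1 for conjugate handling in NCI-H716, and from 0 to 1 for aldehyde and peroxide enzymes and further transferases in HCT116. With the replicate block *GSTA2* and *GSTA3* also passed in NCI-H716 (adjusted p = 5.1e-06 and 0.0396). The cause of these shifts was not tested.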
